A study of Homo sapiens with 4 samples.

Results

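The genes described here encode proteins of the secondary granule of neutrophils, also called the specific granule, together with other proteins that neutrophils secrete. They are LTF, LCN2, CAMP, OLFM4, PTX3, HP, CHI3L1, CHIT1, MMP8 and MMP9, 10 of the 60662 genes in the table, and each was found under its symbol with 1 identifier. They were chosen by name, with their values in the comparison of JMJD3 with vector cells already known. Their values in that comparison are therefore given as a description, with no test, and nothing is supported with them.

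The libraries were made from NB4, a human acute promyelocytic leukemia line (subtype M3) that carries the PML-RARα fusion. The vector group consisted of 2 libraries from NB4 cells transduced with an empty control vector, and the JMJD3 group of 2 libraries from NB4 cells transduced with a vector expressing JMJD3, the histone demethylase encoded by KDM6B. The study's methods describe pLVX-IRES lentiviral vectors and sorting of leukemia cells for the fluorescent protein of the vector. The comparison asks which transcripts change when JMJD3 is overexpressed. Neither the labels nor the methods say that the replicates were separate transductions or cultures, so the p-values measure the spread between these libraries, which may be technical.

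A neutrophil packs its antimicrobial proteins into granules in sequence as it matures: azurophil granules at the promyelocyte stage, specific granules at the myelocyte and metamyelocyte stages, then gelatinase (tertiary) granules and secretory vesicles. The contents of a granule are set largely by which genes are transcribed at that stage, and C/EBPε is a factor needed for the transcription of many specific granule genes. Promyelocytic leukemia cells are arrested at about the stage where azurophil proteins are made.

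The depth of the libraries was 34190352 fragments in vector replicate 1, 38947014 in vector replicate 2, 35431665 in JMJD3 replicate 1 and 41876181 in JMJD3 replicate 2, after the deposited counts were divided by the scaling factor of each library. A count of 0 at these depths allows up to 3 fragments, which is 0.0877, 0.0770, 0.0847 and 0.0716 CPM (counts scaled to library depth) in the same order. These limits, like the intervals below, cover counting error only. Lane 20 carried vector replicate 1, and lane 17 carried vector replicate 2 and both JMJD3 replicates, so folds within lane 17 leave out vector replicate 1. Levels are given in FPKM (fragments scaled by transcript length and library depth) wherever genes are compared with each other, and fold changes are JMJD3 over vector from edgeR's quasi-likelihood fit with their standard error (SE).

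KDM6B was measured at 2.88 and 2.44 FPKM in the vector replicates and at 6.76 and 7.99 FPKM in the JMJD3 replicates, so every library matched its label. Its log2 fold change was 1.48 ± 0.13 (SE), with an adjusted p of 0.00116 in edgeR. Fragments of the introduced and the endogenous gene cannot be told apart in this table.

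Most markers of the promyelocytic line were expressed, with exceptions. The 10 markers summed to 8778 and 9814 FPKM in the vector replicates and 5060 and 5026 FPKM in the JMJD3 replicates, and MPO, the peroxidase of azurophil granules, was the most abundant at 4889, 5055, 3278 and 3324 FPKM. KIT, with 7, 2, 4 and 5 fragments, and ELANE, neutrophil elastase, with 11, 7, 1 and 2 fragments, were nearly undetected. Of the 8 markers tested, 2 rose (CD33 and ANPEP) and 6 fell, PRTN3 and CTSG by over 2-fold. Over all tested genes 21.7% were higher and 19.1% lower, and the markers were not tested against these shares. In FPKM the groups overlapped for CD33, at 61.7, 66.4, 68.5 and 65.1, so counts and FPKM differ for this gene.

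Of the 10 genes, 5 were at or below the limit of 3 fragments in every library, and CHI3L1 and MMP9 were the only ones above 1 FPKM in all 4. LCN2, which encodes a lipocalin that captures bacterial siderophores, had 0 fragments in all 4 libraries. OLFM4, a glycoprotein found in the specific granules of part of the neutrophils, and MMP8, the neutrophil collagenase, also had 0 fragments in all 4. These genes were not detectable at this depth in either group. LTF, the iron-binding protein lactoferrin and a standard marker of specific granules, had 1, 1, 0 and 2 fragments in vector replicates 1 and 2 and JMJD3 replicates 1 and 2. CHIT1, chitotriosidase, an active chitinase, had 2 fragments in vector replicate 1 and 0 in the others. No fold change is given for these 5 genes, which did not pass the filter on low counts.

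**Figure D1:**
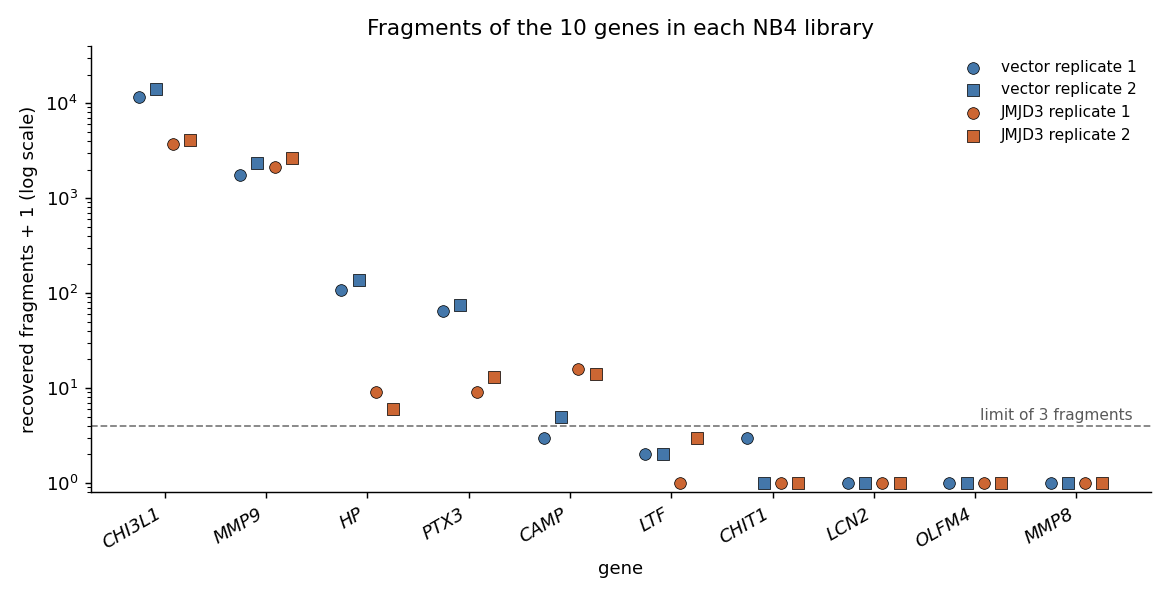
Recovered fragments plus 1 of the 10 genes (log axis), with 1 point per library, vector in blue and JMJD3 in orange, circles for replicate 1 and squares for replicate 2; the dashed line marks 3 fragments. CHI3L1, HP and PTX3 lie lower and CAMP higher in both JMJD3 libraries, MMP9 overlaps, and LTF, CHIT1, LCN2, OLFM4 and MMP8 lie below the line.

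The other 5 genes passed the filter and differed in level by orders of magnitude. HP and PTX3 passed it through the vector libraries and CAMP through the JMJD3 libraries, the group where each was higher. The intervals given for them below describe counting error in genes chosen with their values known, and are not tests. The 10 genes summed to 305 and 342 FPKM in the vector replicates and to 110.5 and 103 FPKM in the JMJD3 replicates. CHI3L1 made up 89.8% and 89.1% of that sum in the vector replicates and 74.2% and 71.9% in the JMJD3 replicates. MMP9 made up 8.43%, 9.21%, 24.7% and 27.3% in the same order. The sum was thus nearly all CHI3L1 and MMP9, and its difference between the groups was mostly that in CHI3L1.

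CHI3L1 encodes a secreted chitinase-like lectin of specific granules that binds chitin but does not cut it. It was measured at 274 and 305 FPKM in the vector replicates and 82.0 and 74.3 FPKM in the JMJD3 replicates, from 11597, 14121, 3709 and 4089 fragments. Both vector libraries lay far above both JMJD3 libraries, and the groups did not overlap. Its mean FPKM ranked 526 among 58828 gene symbols in vector cells and 1566 in JMJD3 cells. The log2 fold change was -1.96 ± 0.09 (SE), 3.90-fold lower in JMJD3 cells, and -2.06 within lane 17. In a bulk sample, fewer cells that express a gene and less RNA of it per cell cannot be told apart, and this holds for each gene below.

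HP encodes haptoglobin, the haemoglobin-binding protein of plasma that neutrophils also store in specific granules. It was measured at 4.04 and 4.40 FPKM in the vector replicates and 0.239 and 0.101 FPKM in the JMJD3 replicates, from 107, 138, 8 and 5 fragments. The gene was moderately expressed in both vector libraries and close to the limit of detection in both JMJD3 libraries. The log2 fold change was -4.45 ± 0.31 (SE), and -4.59 within lane 17. The ratio of the pooled fragments, scaled by library size, was 22.4-fold lower in JMJD3 cells, with an exact 95% interval of 12.9 to 42.7. On a log2(FPKM + 1) scale the difference shrank to -2.16, since the JMJD3 values lie below that pseudocount.

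PTX3 encodes the long pentraxin, a soluble pattern recognition protein that neutrophils store ready-made. It was measured at 1.15 and 1.24 FPKM in the vector replicates and 0.126 and 0.159 FPKM in the JMJD3 replicates, from 63, 74, 8 and 12 fragments. The groups did not overlap, and the replicates of each group lay close together. The log2 fold change was -3.01 ± 0.27 (SE), and -3.08 within lane 17. The pooled ratio was 8.14-fold lower in JMJD3 cells, with an exact 95% interval of 5.07 to 13.8. On a log2(FPKM + 1) scale it was -0.94.

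CAMP encodes cathelicidin, the precursor of an antimicrobial peptide of specific granules. It had 2, 4, 15 and 13 fragments in vector replicates 1 and 2 and JMJD3 replicates 1 and 2, which is 0.129, 0.233, 0.819 and 0.601 FPKM. It was the only one of the 10 genes higher in JMJD3 cells by over 2-fold, and it stayed under 1 FPKM in all 4 libraries. It passed the filter on low counts only through the JMJD3 libraries, so its interval below is a description and not a test. The log2 fold change was 1.94 ± 0.54 (SE), and 1.58 within lane 17. The pooled ratio was 3.92-fold higher in JMJD3 cells, with an exact 95% interval of 1.59 to 11.6. On a log2(FPKM + 1) scale it was 0.53.

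MMP9 encodes gelatinase B, the protease that gives gelatinase granules their name. It was measured at 25.7 and 31.5 FPKM in the vector replicates and 27.3 and 28.2 FPKM in the JMJD3 replicates. Both JMJD3 libraries lay between the vector libraries, so the groups overlapped. The log2 fold change was -0.02 ± 0.11 (SE), and its sign depended on the scaling and on the library left out, from -0.18 without vector replicate 1, which is the comparison within lane 17, to 0.12 without vector replicate 2.

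**Figure D2:**
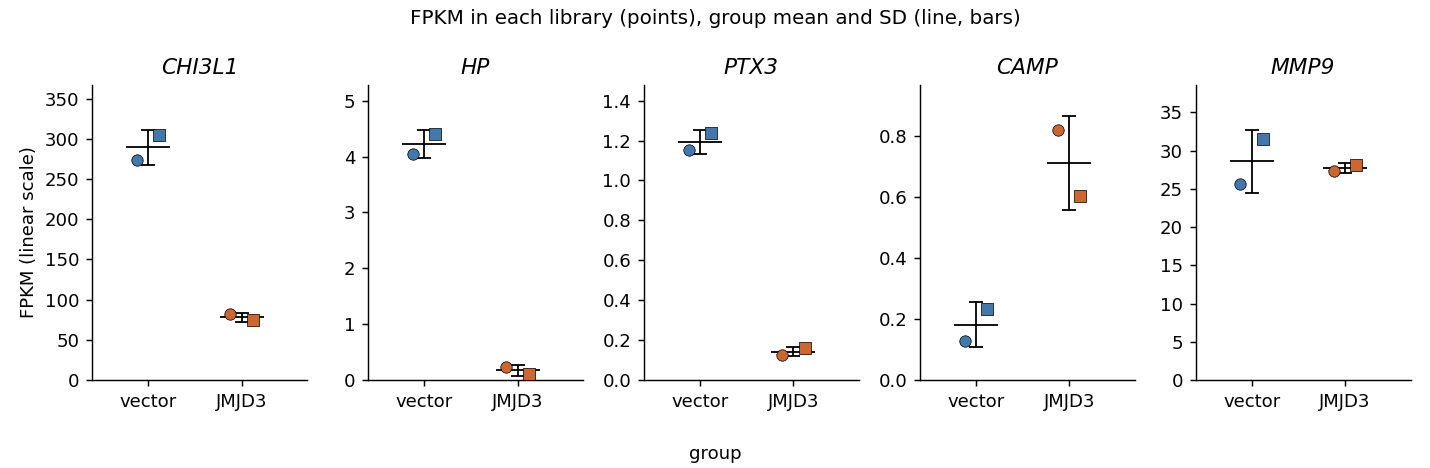
FPKM (linear axes from 0) of the 5 genes that passed the filter on low counts, in vector and JMJD3 cells, with circles for replicate 1, squares for replicate 2, and the group mean ± SD (n = 2) in black. CHI3L1, HP and PTX3 are lower and CAMP higher in both JMJD3 libraries, and the MMP9 values overlap.

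In all, 15243 genes were tested. Here a gene rose, fell or was called at an adjusted p under 0.05 in edgeR whatever the size of its change, and it met the 2-fold rule if it also changed by at least 2-fold. By the 2-fold rule 1157 genes were higher in JMJD3 cells (7.59% of those tested) and 438 were lower (2.87%). With no limit on the fold change 3304 were higher (21.7%) and 2915 lower (19.1%), and the groups did not overlap for 74.3% of the tested genes. Of the 5 tested genes of the 10, CHI3L1, HP and PTX3 were lower and CAMP higher by over 2-fold, and the groups did not overlap for these 4. Since the genes were chosen with these values known, nothing is read from it. An exact permutation test of 2 against 2 libraries cannot give a p below 0.333, so none was used.

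The order of the genes along the genome was examined for CHI3L1 and CHIT1, chitinase family genes that lie beside each other on chromosome 1. In the RefSeq annotation of GRCh38.p14, CHI3L1 occupies chr1:203178931-203186704 and CHIT1 chr1:203216079-203230099, separated by 29374 bases. Of this pair, CHI3L1 was among the more abundant transcripts of vector cells and CHIT1 was nearly undetected in all 4 libraries. On its other side CHI3L1 shares 284 annotated bases with MYBPH, a myosin-binding protein gene. MYBPH was measured at 10.4 and 11.8 FPKM in the vector replicates and 1.61 and 1.96 FPKM in the JMJD3 replicates, with a log2 fold change of -2.60 ± 0.14 (SE) and an adjusted p of 0.000386 in edgeR. The overlapping pair was thus lower together, and fragments from the shared bases cannot be assigned to either gene from this table. MMP9 shares 3060 bases with the noncoding gene SLC12A5-AS1, for which no values were found under its symbol.

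The neighbours of HP, PTX3, CAMP and MMP9 were looked up in the same way, and no difference between a gene and its neighbour was tested. HP lies 2170 bases from HPR, its haptoglobin-related paralog, which had 0 fragments in all 4 libraries, and 26845 bases from DHODH, with a log2 fold change of -0.52 ± 0.11 (SE) and an adjusted p of 0.0123. PTX3 lies inside VEPH1, which had 0 fragments in every library, and its neighbours outside that gene were CCNL1, at -0.34 ± 0.12 (SE) and an adjusted p of 0.0538, and SHOX2, at 0.90 ± 0.18 (SE) and an adjusted p of 0.0106. CAMP lies between CDC25A, at -0.37 ± 0.08 (SE) and an adjusted p of 0.0137, and ZNF589, at 0.52 ± 0.11 (SE) and an adjusted p of 0.0115. Neither neighbour of MMP9 was called, at -0.08 and -0.04 with adjusted p of 0.511 for ZNF335 and 0.851 for SLC12A5. In FPKM, SLC12A5 was lower in JMJD3 cells with no overlap, at 13.9, 19.4, 10.5 and 8.87, so counts and FPKM differ for this gene. Except for VEPH1, these neighbours were taken by position, as the nearest protein-coding gene on each side that does not overlap, and all adjusted p-values are over the tested genes in edgeR.

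Promoter sequences were compared because 3 of the genes with a promoter window differed between the groups in opposite directions while others were undetected in both. The promoter table, made from RefSeq on GRCh38.p14, held windows for 8 of the 10 genes, with none for HP and MMP9. The 250 bases before the annotated start are shown, read 5′ to 3′ on the strand of the gene, for CHI3L1 (chr1:203186705-203186954, minus strand), PTX3 (chr3:157436600-157436849, plus strand) and CAMP (chr3:48223245-48223494, plus strand), which differed, and LCN2 (chr9:128149203-128149452, plus strand), which was undetected. Capitals mark matches to the C/EBP motif TTGCNNAA, the AP-1 motif TGANTCA and the PU.1 core GAGGAA on either strand, and to the TATA box TATAAA on the gene strand.
CHI3L1: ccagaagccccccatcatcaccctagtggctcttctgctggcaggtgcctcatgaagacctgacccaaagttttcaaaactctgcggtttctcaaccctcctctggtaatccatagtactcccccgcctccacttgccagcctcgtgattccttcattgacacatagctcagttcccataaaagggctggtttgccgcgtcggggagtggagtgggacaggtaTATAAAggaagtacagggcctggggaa
PTX3: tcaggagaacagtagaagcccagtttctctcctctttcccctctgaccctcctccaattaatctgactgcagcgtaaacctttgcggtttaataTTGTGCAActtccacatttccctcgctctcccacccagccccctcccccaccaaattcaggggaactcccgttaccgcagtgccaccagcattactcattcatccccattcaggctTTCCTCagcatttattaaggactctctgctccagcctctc
CAMP: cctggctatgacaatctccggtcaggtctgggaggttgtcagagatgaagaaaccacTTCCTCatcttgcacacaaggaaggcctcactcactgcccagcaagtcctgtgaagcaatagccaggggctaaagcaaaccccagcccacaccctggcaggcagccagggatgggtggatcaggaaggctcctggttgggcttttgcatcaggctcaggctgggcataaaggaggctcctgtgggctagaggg
LCN2: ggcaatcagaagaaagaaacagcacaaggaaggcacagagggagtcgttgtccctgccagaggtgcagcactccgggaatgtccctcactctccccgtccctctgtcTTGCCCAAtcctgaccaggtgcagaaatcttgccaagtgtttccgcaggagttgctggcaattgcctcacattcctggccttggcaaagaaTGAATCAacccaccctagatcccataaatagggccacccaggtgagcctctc

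No capital run in these 4 windows covers more than 1 of the motifs. Among all 35116 windows of 250 bases in the table, 9.05% held a match to the C/EBP motif, 6.57% to the AP-1 motif, 23.6% to the PU.1 core and 6.80% to the TATA box. The C/EBP motif had 1 match in PTX3, which was lower in JMJD3 cells, 1 in LCN2 and 1 in MMP8, which were at 0, 3 in CHIT1, which was nearly undetected, and 1 in only 1 of the 3 windows of LTF. It had no match in the CHI3L1, CAMP or OLFM4 windows. CHI3L1 held the TATA box, 27 to 22 bases before its start, and no match to the other motifs. CpG dinucleotides numbered 6 in the CHI3L1 window, 5 in PTX3, 1 in CAMP and 4 in LCN2, against a median of 11 over all windows. Whether these matches have a part in the levels of the genes was not tested. A match is a description of the letters and not a binding site.

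Other specific granule genes, 16 taken as a list, were mostly undetected or did not pass the test. In this list 7 genes were at or below 3 fragments in every library: CEACAM8, CEACAM6, CEACAM1, CRISP3, PGLYRP1, ORM2 and CD177. Of the 8 tested, 2 rose and 1 fell, and the median log2 fold change was -0.04, beside 0.04 over all tested genes. For comparison, 25.1% of all genes were tested, and of those 21.7% were higher and 19.1% lower. Whether the list differs from these shares was not tested. SLPI, a secreted protease inhibitor, fell from 81.8 and 104 FPKM in the vector replicates to 43.7 and 38.4 FPKM in the JMJD3 replicates (log2 fold change -1.13 ± 0.14 SE, adjusted p 0.00264 in edgeR), by less than 2-fold without vector replicate 2 (-0.97). B2M, which also forms part of HLA class I, rose from 4299 and 4454 FPKM to 5944 and 5557 FPKM (0.43 ± 0.07 SE, adjusted p 0.00527), though limma on FPKM did not call it (log2 difference 0.39). TCN1, the vitamin B12 carrier haptocorrin, had 9, 14, 42 and 36 fragments (1.52 ± 0.35 SE, adjusted p 0.0161), a call that was lost with DESeq2 and without JMJD3 replicate 1 (1.27). On a log2(FPKM + 1) scale TCN1 was at 0.46. CAMP and TCN1 were both under 1 FPKM in every library.

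LYZ, the lysozyme found in all granule classes, was at 27.6, 25.9, 24.1 and 21.6 FPKM in vector replicates 1 and 2 and JMJD3 replicates 1 and 2. Its log2 fold change of -0.18 ± 0.11 (SE) did not pass the test (adjusted p 0.217 in edgeR), and passed without vector replicate 2 (-0.23), with -0.10 without JMJD3 replicate 2. CEACAM8, a surface protein of specific granules, had 0 fragments in all 4 libraries, and CEACAM6 had 0, 1, 0 and 1. So the membrane protein CEACAM8 was at 0, as were the matrix proteins LCN2 and OLFM4, and LTF was nearly undetected, while LYZ was present in each library.

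Genes of tertiary granules and secretory vesicles, a list of 20, rose where they were called with all 4 libraries. Of 14 tested, 8 rose and none fell, and the median log2 fold change was 0.54 against 0.04 over all tested genes. Of all tested genes 21.7% were higher and 19.1% lower. Whether the list differs from these shares was not tested. CR1, complement receptor 1, rose from 0.843 and 0.517 FPKM to 6.87 and 7.94 FPKM (3.57 ± 0.24 SE, adjusted p 0.000613 in edgeR, and 2.33 on a log2(FPKM + 1) scale). MMP25, a membrane-anchored relative of MMP8 and MMP9, rose from 1.75 and 2.07 FPKM to 5.23 and 4.99 FPKM (1.22 ± 0.13 SE, adjusted p 0.00187). ITGB2, the β subunit of the leukocyte integrins, rose from 61.6 and 57.2 FPKM to 103.5 and 121 FPKM (0.74 ± 0.08 SE, adjusted p 0.00182). SLC11A1, a metal transporter, rose as well, from 18, 30, 63 and 73 fragments (1.26 ± 0.26 SE, adjusted p 0.0114), but by less than 2-fold within lane 17 (0.97) and on a log2(FPKM + 1) scale (0.32). CYBB and CYBA, the membrane subunits of the phagocyte oxidase carried by specific granules, were counted in this list. Neither passed the test. CYBB was at 57.8, 49.6, 51.9 and 56.1 FPKM (0.03 ± 0.11 SE, adjusted p 0.826) and CYBA at 303, 395, 319 and 294 FPKM (-0.19 ± 0.11 SE, adjusted p 0.214). The groups overlapped for both genes, and CYBA passed as lower within lane 17 (-0.37) but not without vector replicate 2 (-0.04).

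Azurophil granule genes were a list of 15. Of 14 tested, 8 were called lower, DEFA3 included, and 1 higher, 4 and 1 of them by the 2-fold rule. Over all tested genes 19.1% were lower and 21.7% higher, 2.87% and 7.59% by the 2-fold rule. The difference from these shares was not tested. The median log2 fold change of the list was -0.40. CTSG, cathepsin G, fell from 230.5 and 268 FPKM to 17.2 and 15.3 FPKM (-3.91 ± 0.12 SE, adjusted p 9.92e-05 in edgeR). DEFA4, a defensin, fell from 15.7 and 22.0 FPKM to 1.48 and 1.52 FPKM (-3.60 ± 0.24 SE, adjusted p 0.000613). DEFA3 was also called lower (16, 21, 2 and 4 fragments, -2.82 ± 0.48 SE, adjusted p 0.00586, and -1.55 on a log2(FPKM + 1) scale), but it is nearly identical to DEFA1, which had 55, 85, 108 and 19 fragments with overlapping groups. The division of fragments between them is uncertain, so no fall of DEFA3 is read from this call. PRTN3, proteinase 3, fell from 2745 and 3398 FPKM to 884 and 828 FPKM (-1.81 ± 0.11 SE, adjusted p 0.000416), and MPO fell by less than 2-fold (-0.57 ± 0.06 SE, adjusted p 0.00174). BPI, the gene that rose, had 5, 2, 14 and 16 fragments (1.81 ± 0.55 SE, adjusted p 0.0374). Its call was lost with DESeq2, with limma on FPKM (0.17 with a pseudocount of 1), without vector replicate 2 (1.23), without JMJD3 replicate 1 (1.78) and without JMJD3 replicate 2 (1.84). The calls of CTSG, DEFA4, PRTN3 and MPO held with each library left out.

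**Figure D3:**
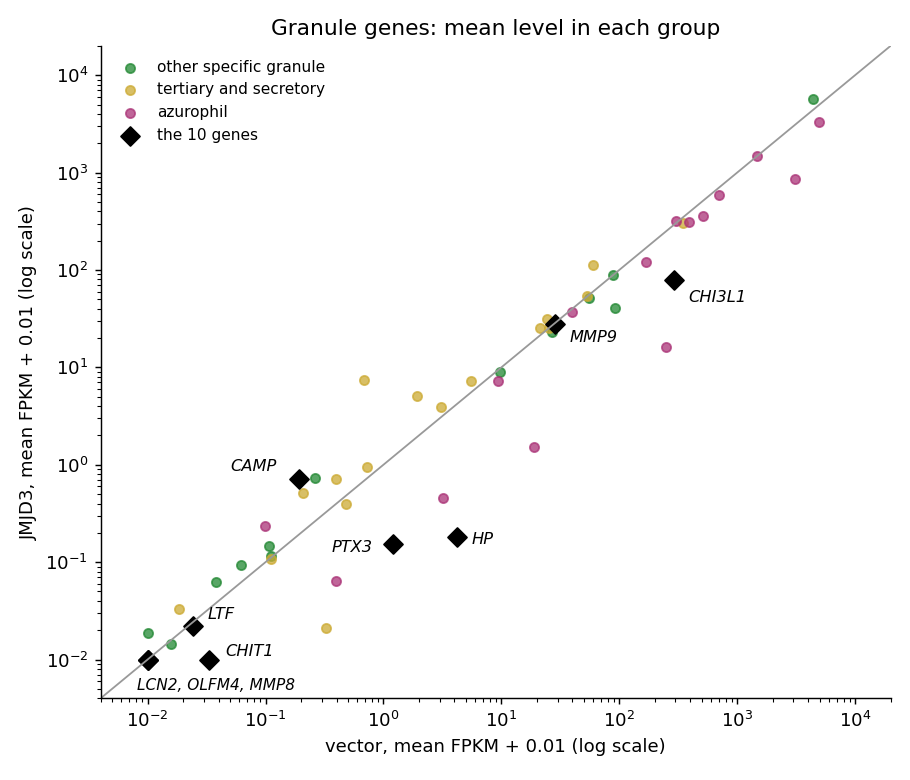
Mean FPKM plus 0.01 in JMJD3 cells against vector cells (n = 2 each, log axes) for the 10 genes (black diamonds) and for the lists of other specific granule, tertiary granule and secretory vesicle, and azurophil granule genes; the line marks equal levels. CHI3L1, HP and PTX3 lie below the line, MMP9 lies on it, CAMP lies above it, and LCN2, OLFM4 and MMP8 lie together in the corner at 0 FPKM.

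Transcription factors of granulocyte maturation, a list of 21, were nearly all expressed. Of 20 tested, 11 rose and 3 fell, with a median log2 fold change of 0.34. The shares over all tested genes were 21.7% higher and 19.1% lower, and the difference from them was not tested. CEBPE, which encodes C/EBPε, was at 54.9 and 69.5 FPKM in the vector replicates and 104 and 97.1 FPKM in the JMJD3 replicates (0.73 ± 0.12 SE, adjusted p 0.00512 in edgeR). It was well expressed in all 4 libraries, in which LTF, LCN2, OLFM4 and MMP8 stayed at or below 3 fragments. A link between CEBPE and the levels of these genes was not tested. CEBPB rose from 7.35 and 7.56 FPKM to 12.7 and 10.2 FPKM (0.65 ± 0.14 SE, adjusted p 0.0117). CEBPD rose from 23.1 and 27.0 FPKM to 41.6 and 36.6 FPKM (0.67 ± 0.11 SE, adjusted p 0.00574). The calls of CEBPB and CEBPD were lost without JMJD3 replicate 1, where their log2 fold changes were 0.48 and 0.58.

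CEBPA, the C/EBP factor of earlier granulocytic cells, fell from 91.6 and 110.3 FPKM to 73.1 and 65.0 FPKM (-0.52 ± 0.11 SE, adjusted p 0.0107 in edgeR), and lost the call without JMJD3 replicate 2 (-0.43). GFI1, a repressor needed for neutrophil development, fell from 67.3 and 60.2 FPKM to 49.2 and 48.9 FPKM (-0.36 ± 0.09 SE, adjusted p 0.0242), and lost the call without either JMJD3 replicate (-0.36 and -0.35). RARA fell from 26.4 and 29.7 FPKM to 20.9 and 22.1 FPKM (-0.41 ± 0.10 SE, adjusted p 0.0211), with the same loss (-0.36 and -0.46), and was not called by limma on FPKM (-0.36 with a pseudocount of 1). So the falls of these 3 factors were small, and each lost its call without at least 1 of the JMJD3 libraries. SPI1, which encodes PU.1, was at 204, 246, 189 and 169 FPKM (-0.28 ± 0.11 SE, adjusted p 0.0715) and did not pass, though it did within lane 17 (-0.44), without the filter on low counts (-0.27) and with DESeq2 (-0.32). SPI1 was at -0.17 without vector replicate 2, -0.37 without JMJD3 replicate 1 and -0.20 without JMJD3 replicate 2, and passed in none of these. EGR1 rose from 1.21 and 1.09 FPKM to 10.5 and 10.8 FPKM (3.24 ± 0.12 SE, adjusted p 0.000202). MYB, a factor of immature cells, rose from 115.5 and 80.5 FPKM to 198 and 212 FPKM (1.00 ± 0.13 SE, adjusted p 0.00265), and STAT5A rose from 22.0 and 23.0 FPKM to 38.6 and 39.9 FPKM (0.87 ± 0.09 SE, adjusted p 0.00149).

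**Figure D4:**
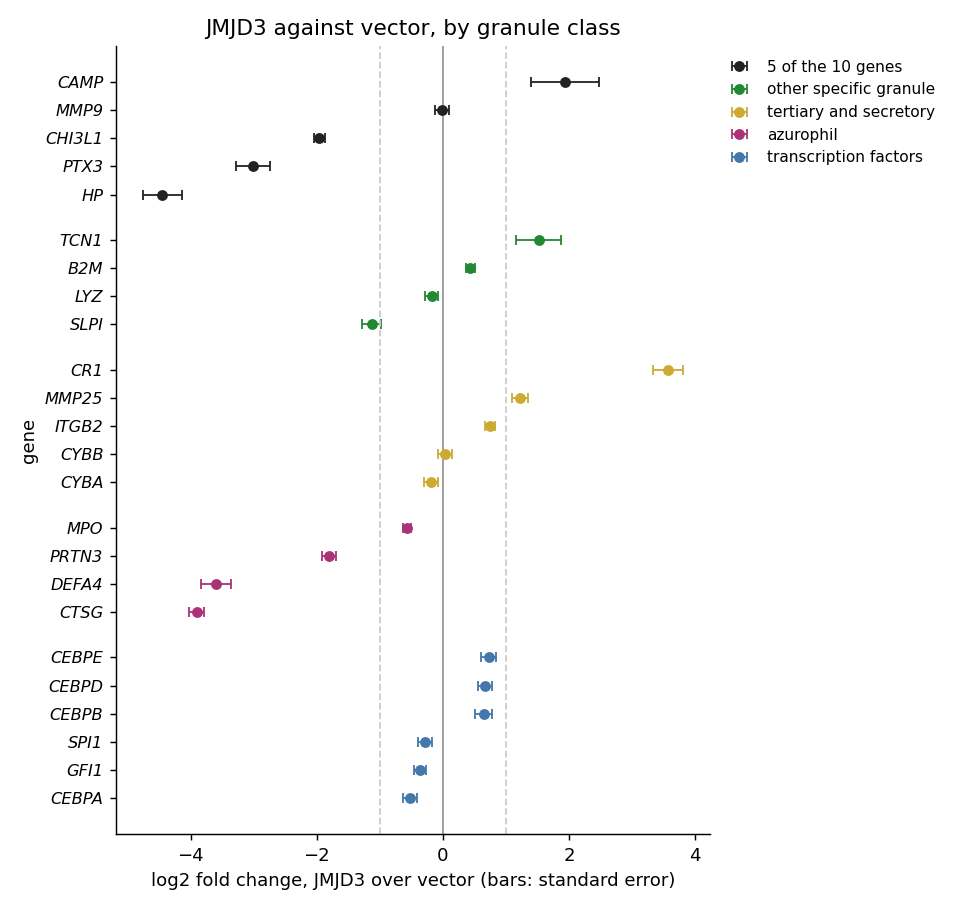
Log2 fold change, JMJD3 over vector, with its standard error (bars) for the 5 tested genes of the 10 and for genes of 4 lists, grouped by colour; dashed lines mark a 2-fold change. HP, PTX3 and CHI3L1 lie on the side of the azurophil genes CTSG, DEFA4 and PRTN3, while CR1 and MMP25 lie with CAMP on the other side.

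Receptors, inhibitors and partners of the 10 proteins, a list of 27, were next. Of 12 tested, 5 rose and 1 fell, and 12 genes of the list were at or below 3 fragments in every library. The shares over all tested genes were 21.7% higher and 19.1% lower, and the difference from them was not tested. TIMP1, an inhibitor of MMP8 and MMP9, rose from 138 and 166 FPKM to 215 and 204 FPKM (0.51 ± 0.10 SE, adjusted p 0.00987 in edgeR), and lost the call without JMJD3 replicate 1 (0.46). TIMP2 was at 15.5, 15.1, 16.8 and 16.8 FPKM and did not pass (0.15 ± 0.09 SE, adjusted p 0.221). The ratio of MMP9 to TIMP1 in FPKM was 0.186 and 0.190 in the vector replicates and 0.127 and 0.138 in the JMJD3 replicates. The TIMP1 transcript thus exceeded the MMP9 transcript in every library, and protein amounts cannot be read from these ratios. The ratio of MMP9 to TIMP2 was 1.66, 2.08, 1.63 and 1.68, so TIMP2 was below MMP9 in every library. CD163, the scavenger receptor that takes up the haptoglobin and haemoglobin complex, had 1, 0, 0 and 1 fragments, and SLC22A17 and LRP2, receptors for lipocalin-2, were also at or below 3 fragments.

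P2RX7, a purinergic receptor through which the CAMP peptide acts, rose from 43, 42, 112 and 183 fragments (1.53 ± 0.23 SE, adjusted p 0.00404 in edgeR, and 0.66 on a log2(FPKM + 1) scale). LGALS3, a galectin that binds glycoproteins, rose from 1.32 and 0.915 FPKM to 2.74 and 3.47 FPKM (1.37 ± 0.29 SE, adjusted p 0.0123), by less than 2-fold without vector replicate 2 (0.96) and on a log2(FPKM + 1) scale (0.96). CD44, which docks MMP9 at the cell surface, rose from 97.4 and 83.4 FPKM to 128 and 141 FPKM (0.68 ± 0.08 SE, adjusted p 0.002). In the list as a whole, 6 of the 12 tested genes were not called. PLAU, urokinase, rose from 8.79 and 10.4 FPKM to 14.7 and 13.1 FPKM (0.52 ± 0.13 SE, adjusted p 0.0205), and lost the call without either JMJD3 replicate (0.41 and 0.62). NDUFA13 was the gene of the list that fell (-0.48 ± 0.14 SE, adjusted p 0.0314), and it lost the call without JMJD3 replicate 2 (-0.39) and with limma on FPKM (-0.47). NDUFA13 ranged from -0.70 without vector replicate 1 to -0.29 without vector replicate 2. The median log2 fold change of the list was 0.40.

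Family relatives of the 10 genes were a list of 40, of which 39 were found. Of these 14 were tested, while 25.1% of all genes in the table were. In this list 22 genes were at or below 3 fragments in every library, among them CHIA and CHI3L2 of the chitinase family, OLFM1 and OLFM3 of the olfactomedin family and the pentraxins CRP and APCS. Of 14 tested, 6 rose and 2 fell, with a median log2 fold change of 0.30. Over all tested genes 21.7% were higher and 19.1% lower, and the list was not tested against these shares. LCN10 and LCN6, lipocalins related to LCN2, rose (4.08 ± 0.21 SE, adjusted p 0.000344, and 3.27 ± 0.17 SE, adjusted p 0.000361 in edgeR). LCN6 went from 1.82 and 1.60 FPKM to 17.7 and 17.7 FPKM and LCN10 from 0.151 and 0.417 FPKM to 3.88 and 3.13 FPKM. LCN12 rose as well, with 6, 7, 33 and 30 fragments (2.02 ± 0.38 SE, adjusted p 0.00783). On a log2(FPKM + 1) scale the changes were 1.81 for LCN10, 2.79 for LCN6 and 0.63 for LCN12. Lipocalin transcripts were thus present in JMJD3 cells, but LCN2 was at 0.

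TF, transferrin, the plasma relative of LTF, had 0, 1, 14 and 13 fragments and was called at this low level (adjusted p 0.00941 in edgeR, and 0.42 on a log2(FPKM + 1) scale). MMP2, gelatinase A, the closest relative of MMP9 in substrate, fell from 16.1 and 19.2 FPKM to 8.69 and 8.57 FPKM (-1.14 ± 0.10 SE, adjusted p 0.0012, and -0.95 on a log2(FPKM + 1) scale). So of the 2 gelatinases MMP2 fell and MMP9 overlapped between the groups; the difference between them was not tested. MMP14, which activates MMP2 at the cell surface, rose in edgeR (0.79 ± 0.13 SE, adjusted p 0.00536), with 156, 162, 305 and 349 fragments, but was not called by limma on FPKM (0.46 with a pseudocount of 1). CHID1, a chitinase-domain relative of CHI3L1, fell slightly from 93.1 and 120 FPKM to 80.5 and 78.3 FPKM (-0.36 ± 0.12 SE, adjusted p 0.0452), and lost the call without JMJD3 replicate 1 (-0.37), without JMJD3 replicate 2 (-0.35), with upper quartile scaling (-0.33), with the replicate block (-0.35) and with limma on FPKM (-0.41). Its value moved most with the vector libraries, to -0.55 without replicate 1 and -0.20 without replicate 2.

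Markers of other cell types were summed in each library, since CHI3L1, CHIT1 and PTX3 are also made by macrophages and HP and TF by other tissues. The 10 monocyte and macrophage markers summed to 17.3, 16.4, 26.3 and 28.7 FPKM in vector replicates 1 and 2 and JMJD3 replicates 1 and 2. CD68 was the most abundant (10.8, 11.8, 18.4 and 18.7 FPKM), and CD163, VCAN, MRC1 and MARCO were at or below 3 fragments in every library. Of 6 tested, CSF1R (1.56 ± 0.15 SE, adjusted p 0.00142 in edgeR) and CD68 (0.60 ± 0.10 SE, adjusted p 0.00607) rose, and CD68 lost its call without JMJD3 replicate 1 (0.55). The other 4 tested markers were not called, and over all tested genes 21.7% were higher. The summed level was higher in JMJD3 cells, and most of it was CD68. The part of these markers in the differences of CHI3L1 and PTX3 was not tested.

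The 10 eosinophil, basophil and mast cell markers summed to 181, 208, 934 and 836 FPKM, and all 7 tested rose. Over all tested genes 21.7% were higher, and the markers were not tested against this share. PRG2, the eosinophil major basic protein, was the most abundant at 156, 182, 715 and 620.1 FPKM, and HDC, histidine decarboxylase, rose by 3.46 ± 0.08 (SE) on the log2 scale, while IL5RA was at or below 3 fragments in every library. CPA3, a mast cell protease of this list that was not tested, was lower, with 8, 9, 0 and 0 fragments. The 7 tested markers rose in the same libraries in which CHI3L1, HP and PTX3 were lower, and their part in those differences was not tested. The 10 erythroid and megakaryocyte markers summed to 0.359, 0.520, 0.620 and 1.29 FPKM, with ITGA2B the most abundant (0.291, 0.396, 0.562 and 1.14 FPKM) and the one that was tested and rose. HBB and PF4 of this list were at 0 in all libraries, and PPBP was at or below 3 fragments.

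The 8 lymphocyte markers summed to 163, 200.4, 172 and 170.5 FPKM, nearly all of it NKG7 (151, 186, 152 and 150.5 FPKM), which was called lower only within lane 17 (-0.30), and MS4A1 was at 0 in all 4 libraries while CD3E and CD8A were at or below 3 fragments. Of 3 tested 1 rose, the B cell gene CD79A. The 8 stromal and epithelial markers summed to 6.11, 6.85, 3.31 and 3.17 FPKM, with EPCAM the most abundant at 4.12, 4.84, 1.10 and 0.951 FPKM. Of 3 tested PDGFRB rose and EPCAM fell, and COL1A2, COL3A1 and KRT19 were at 0. The part of NKG7, CD79A, EPCAM and the other markers in the differences of CHI3L1, HP, PTX3 and CAMP was not tested.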

How the data were processed

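RNA was sequenced from 2 vector and 2 JMJD3 NB4 libraries, paired-end, with a TruSeq kit that keeps no strand information. The authors deposited per-gene estimated counts and FPKM for each library. The submitters' processing notes name CASAVA 1.8, TopHat2 2.0.4, RSEM, edgeR and GRCh38, the series design names BWA and Cufflinks, and the study's methods name STAR on hg19, HTSeq-count and DESeq2; which of these gave the columns is not stated. The labels and the methods also differ in culture medium and RNA extraction. The table's columns of group means, fold changes, p-values, FDR and calls were not used.

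The deposited counts are not whole numbers. Of values up to 20 fragments, 96.0% were whole multiples (within 0.02 of a fragment) of 1 step per library, 1.14, 1.05, 0.993 and 0.829 in vector replicates 1 and 2 and JMJD3 replicates 1 and 2. Counts were divided by these steps and rounded, so the deposited totals of 39078443, 40768225, 35176388 and 34704909 are not depths. The design had assumed unscaled estimated counts; the undivided counts were added as an alternative after the data were seen. FPKM was used as deposited.

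Genes were filtered with filterByExpr and tested with edgeR 4.0.16 (quasi-likelihood, TMM, Benjamini-Hochberg over 15243 genes) in R 4.3.3. Steps were tested on simulated data. Alternatives were other scalings, DESeq2 1.42.0, limma 3.58.1 on FPKM in log2 after adding 1 or 0.1, other filters, a replicate block and leaving out each library. With a library left out, the lone sample of its group is assumed to vary like the other group. Exact 95% intervals of pooled ratios are conditional binomial.

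The 10 genes, the 6 lists of related genes and the 6 lists of markers were chosen with earlier results of these data known. The text names the 10 genes, KDM6B, 16 genes whatever their values and, in each of the 6 lists of related genes, up to 3 genes per direction with the largest change that passed at adjusted p under 0.05, averaged 1 FPKM or more and had groups that did not overlap. TCN1, SLC11A1, BPI, P2RX7, TF, LCN12, DEFA1, neighbours and the markers given with values were named after their values were seen. Genome positions and promoters are RefSeq's on GRCh38.p14, since the table gives none.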

Additional observations from a re-analysis of the deposited data

How the results depend on the processing

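Of the 62 values that the alternatives gave for the 5 tested genes of the 10, 56 moved by less than the spread between replicates. CHI3L1 ranged from -2.06 to -1.87 on the log2 scale and HP, PTX3 and CAMP kept their direction throughout, with their smallest values on log2(FPKM + 1). HP, PTX3 and CAMP gave no value with at least 10 counts in every library. Of 618 values for 48 other named genes, 573 kept their direction and their side of adjusted p 0.05, whatever the fold change, 34 no longer passed and 6 newly passed. CYBB, not past the threshold in any fit, turned to -0.0020 with DESeq2 size factors and -0.0020 with the DESeq2 test, and ranged from -0.10 to 0.13 with a library left out; NKG7 ranged from -0.30, where it passed, to 0.0266.

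With no limit on the fold change, 3304 genes were higher and 2915 lower, against 1157 and 438. With limma on log2(FPKM + 1), 293 were higher and 168 lower, and 6 list genes were higher against 12; adding 0.1 in place of 1 gave 941, 380 and 13. The replicate number as a block gave 1252 higher and 482 lower, and it ended the call of CHID1 among the named genes. Deviations of same-numbered replicates correlated at -0.25 across genes. Vector replicate 1 was alone on its lane, so this value cannot show whether the replicates were paired. Crossed pairing, added after seeing the data, gave 1213 and 461. Undivided counts, also added then, gave 1151 and 430. Leaving out a library gave 907 to 1382 higher and 348 to 612 lower. Depth limits the genes at or below 3 fragments, for which no direction can be read.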
